A study of Homo sapiens with 28 samples.

Results

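The genes described here are 10 members of the receptor tyrosine kinase signaling system at the surface of HCT116 tumor cells. They are the receptors EGFR, ERBB2, ERBB3, MET and IGF1R, the ligands AREG, EREG, TGFA and HBEGF, and the PI3K regulatory subunit PIK3R3. They were chosen by name, each matched 1 row of the count table, and they make up 10 of its 58278 genes. HCT116, an established cell line from a human colorectal carcinoma, carried a Luciferase-GFP reporter and was injected under the skin of male NOD SCID mice at 5 weeks of age. Mice then received, by mouth every day for 23 days, the vehicle alone (Control), the CDK4/6 inhibitor Palbociclib at 100 mg/kg, the glutaminase inhibitor Telaglenastat at 150 mg/kg, or both drugs at these doses (Combination). Some labels spell the second drug Telaglenestat. RNA was sequenced from 3 Control, 5 Palbociclib, 4 Telaglenastat and 4 Combination tumors and from 3 cell cultures per treatment. Each culture was a separate line established from a xenograft and grown without drug, and the sources used here do not say which tumor it came from, nor which mouse each tumor came from, so p-values measure the spread between these samples. NOD SCID mice lack functional T and B cells but keep other host cells, so a tumor library could also hold RNA of mouse stroma and myeloid cells.

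Receptors of the EGFR family pair when a ligand binds, phosphorylate each other and recruit adaptors that switch on the RAS and PI3K pathways. ERBB2 has no known ligand and acts as a partner, whereas ERBB3 has a weak kinase and carries many docking sites for PI3K. AREG, EREG, TGFA and HBEGF are made as membrane-bound precursors and are released by proteases of the ADAM family. MET is the receptor of hepatocyte growth factor, IGF1R that of insulin-like growth factors, and in the colonic epithelium this network is best known for driving cell growth and renewal.

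Total counts ranged from 6273834 to 13815675 per library, and all 10 genes passed the filter on low counts in tumors and in cultures. The libraries differed in how far GC-rich genes stood above GC-poor ones. In each library, log2 levels relative to the gene's mean over tumors or over cultures were regressed on the GC content of the genes. Slopes of tumors and of cultures therefore have different zero points. These relative levels changed per SD of GC content by 0.245 to 0.255 in Control tumors and by 0.0971 to 0.353 in Palbociclib tumors. This slope was -0.38 to -0.295 in Telaglenastat tumors and -0.282 to -0.158 in Combination tumors. In cultures it was -0.128 to 0.172, apart from Telaglenastat culture 2 with 0.414. The main fold changes in tumors are therefore also given with a spline on GC content and exon length taken out of each library ("corrected"). Treatment and this slope cannot be told apart by design. Of 10 colorectal epithelial markers, 6 to 8 reached 1 CPM (counts scaled to library size) in each group, while LGALS4 and CEACAM5 were below it in all. The sum of all 10 was 2628 to 3171 CPM in Control and 2890 to 4002 in Palbociclib tumors. It was 1559 to 1719 CPM in Telaglenastat and 2265 to 2561 in Combination tumors. Summed stromal markers were 162 to 202 CPM in Control tumors, 116 to 197 in Palbociclib, 54.2 to 66.6 in Telaglenastat and 101 to 155 in Combination tumors, against 3.58 to 12.7 in cultures. LUM, DCN and THY1 of that list were at or near 0 throughout. Summed leukocyte markers were 10.9 to 16.3 CPM in Control and 13.5 to 24.3 in Palbociclib tumors. They were 1.96 to 5.16 CPM in Telaglenastat and 3.65 to 9.3 in Combination tumors. The part of these shifts in the differences below was not tested. In such bulk samples fewer cells of a type and less RNA per cell cannot be told apart. The marker sums were not corrected for GC content, and the tumors that received Telaglenastat also differed in GC slope. Counts are of human genes (hg38), and the share of mouse reads in them was not tested.

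AREG and EREG, 2 of the 3 genes with the highest level per length, are neighbours on chromosome 4. The 250 bases before the RefSeq start of each (GRCh38.p14, plus strand) are therefore shown, with motif matches in capitals. AREG lies at chr4:74445134-74455009 and EREG at chr4:74365143-74388751 in hg38.

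AREG, chr4:74444886-74445135: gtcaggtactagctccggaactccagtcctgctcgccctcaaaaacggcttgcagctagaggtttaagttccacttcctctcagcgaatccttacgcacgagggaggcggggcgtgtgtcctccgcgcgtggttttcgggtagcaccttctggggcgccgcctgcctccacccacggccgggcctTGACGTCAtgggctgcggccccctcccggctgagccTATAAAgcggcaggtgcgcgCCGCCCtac

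EREG, chr4:74364895-74365144: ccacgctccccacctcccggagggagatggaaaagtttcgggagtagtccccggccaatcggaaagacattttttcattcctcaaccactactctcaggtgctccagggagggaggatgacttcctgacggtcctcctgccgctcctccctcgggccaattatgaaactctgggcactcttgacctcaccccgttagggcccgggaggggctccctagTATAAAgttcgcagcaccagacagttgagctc

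Both windows held the TATA box TATAAA, 29 bases before the start in AREG and 32 in EREG, a sequence found in 10.7% of 35116 promoter windows of this length. AREG also held the full cAMP response element TGACGTCA 65 bases before the start, which 1.65% of promoters held, and 1 GC box GGGCGG, read on the other strand. EREG held neither. Motifs were searched on both strands, and the matches in these windows did not overlap. The GC box occurred in 42.6% of all promoters, and was also found 5 times in HBEGF, 3 times in TGFA and 2 times each in EGFR, MET, IGF1R and PIK3R3. The AP-1 element TGANTCA occurred in ERBB2 alone of the 9 members with a RefSeq promoter, against 6.57% of all promoters, and the E-box CACGTG in none, against 6.34%.

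Per kilobase of exon, EREG, AREG and MET stood far above the other members. In Control tumors EREG had the highest level with 127 ± 17.8 RPKM (CPM per kilobase of exon, SD, n = 3). It was followed by AREG with 96.7 ± 17.4 and MET with 75.1 ± 5.4 RPKM. EREG and AREG overlapped in range, whereas AREG and MET did not. EGFR had 20.9 ± 1.63 and TGFA 18 ± 0.944 RPKM, without overlap. ERBB2 with 6.43 ± 0.406 stood just above ERBB3 with 5.69 ± 0.106 RPKM. HBEGF with 3.25 ± 1.7 overlapped IGF1R with 2.33 ± 0.234, and PIK3R3 was lowest with 0.975 ± 0.212 RPKM. In Control cultures TGFA with 18.8 ± 1.73 RPKM was above EGFR with 10.8 ± 0.655, and ERBB2 with 2.62 ± 0.513 was below ERBB3 with 4.7 ± 0.931 and overlapped HBEGF with 3.44 ± 0.378. In Telaglenastat tumors ERBB2 with 2.32 ± 0.283 RPKM had dropped to the ninth place and overlapped IGF1R. EREG, AREG and MET held the 3 highest places, and PIK3R3 the lowest, in all 8 groups.

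**Figure D1:**
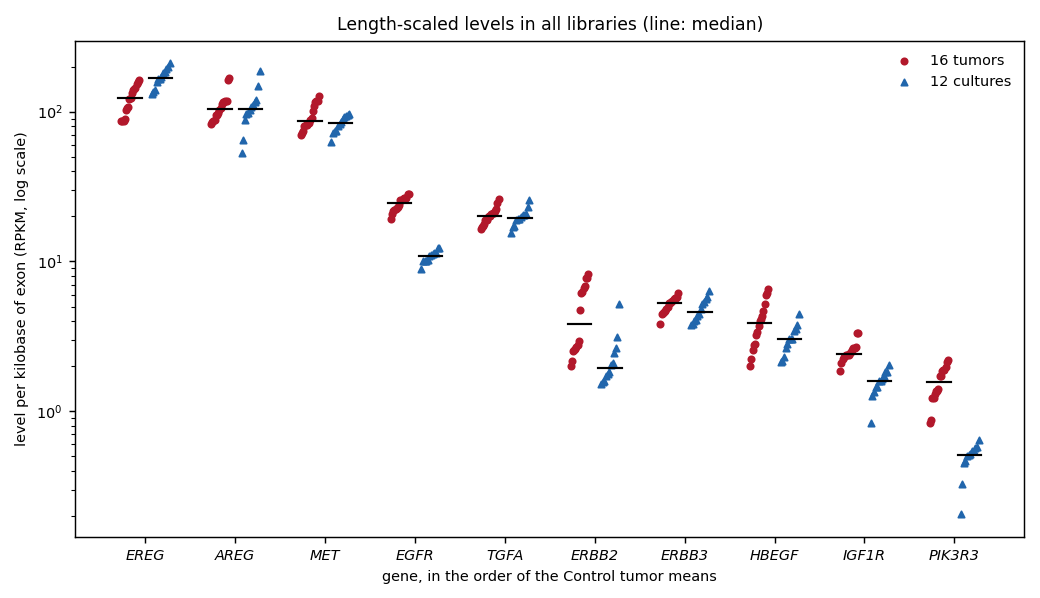
Level per kilobase of exon (RPKM, log axis) of each gene in 16 tumors (circles) and 12 cultures (triangles), with the median as a line, in the order of the Control tumor means. EGFR and PIK3R3 were higher in every tumor than in any culture, while ERBB2 in tumors fell into a higher and a lower set of libraries.

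Against Control tumors, 2 of the 10 genes passed the threshold (adjusted p below 0.05, edgeR quasi-likelihood test) with Palbociclib, where 6.16% of all 14848 genes tested did. With Telaglenastat 3 genes passed, where 51.1% of all genes did, so the share of members was below that background. With the Combination 8 genes passed, where 44.5% of all genes did. The median change of the 10 genes was 0.12 with Palbociclib, 0.03 with Telaglenastat and 0.28 with the Combination on the log2 scale, beside medians of 0.00067, 0.027 and -0.036 over all genes. After correction 2, 2 and 5 of the 10 passed, where 7.79%, 14.9% and 26.4% of all genes did. Treated and Control tumors did not overlap in CPM for 3 genes with Palbociclib, 5 with Telaglenastat and 6 with the Combination, where 13.5%, 57.4% and 49.9% of all genes did not. The 3 comparisons share the Control tumors. Levels in CPM, here and below, are scaled over all 28 libraries and fold changes over the 16 tumors. The first scaling placed Telaglenastat 0.11 and the Combination 0.10 higher against Control on the log2 scale. The gap between treated and Control tumors was smaller than this shift for EGFR, EREG and PIK3R3 with Telaglenastat and MET with the Combination. The counts of 5 and 6 genes without overlap thus depend on the scaling.

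**Figure D2:**
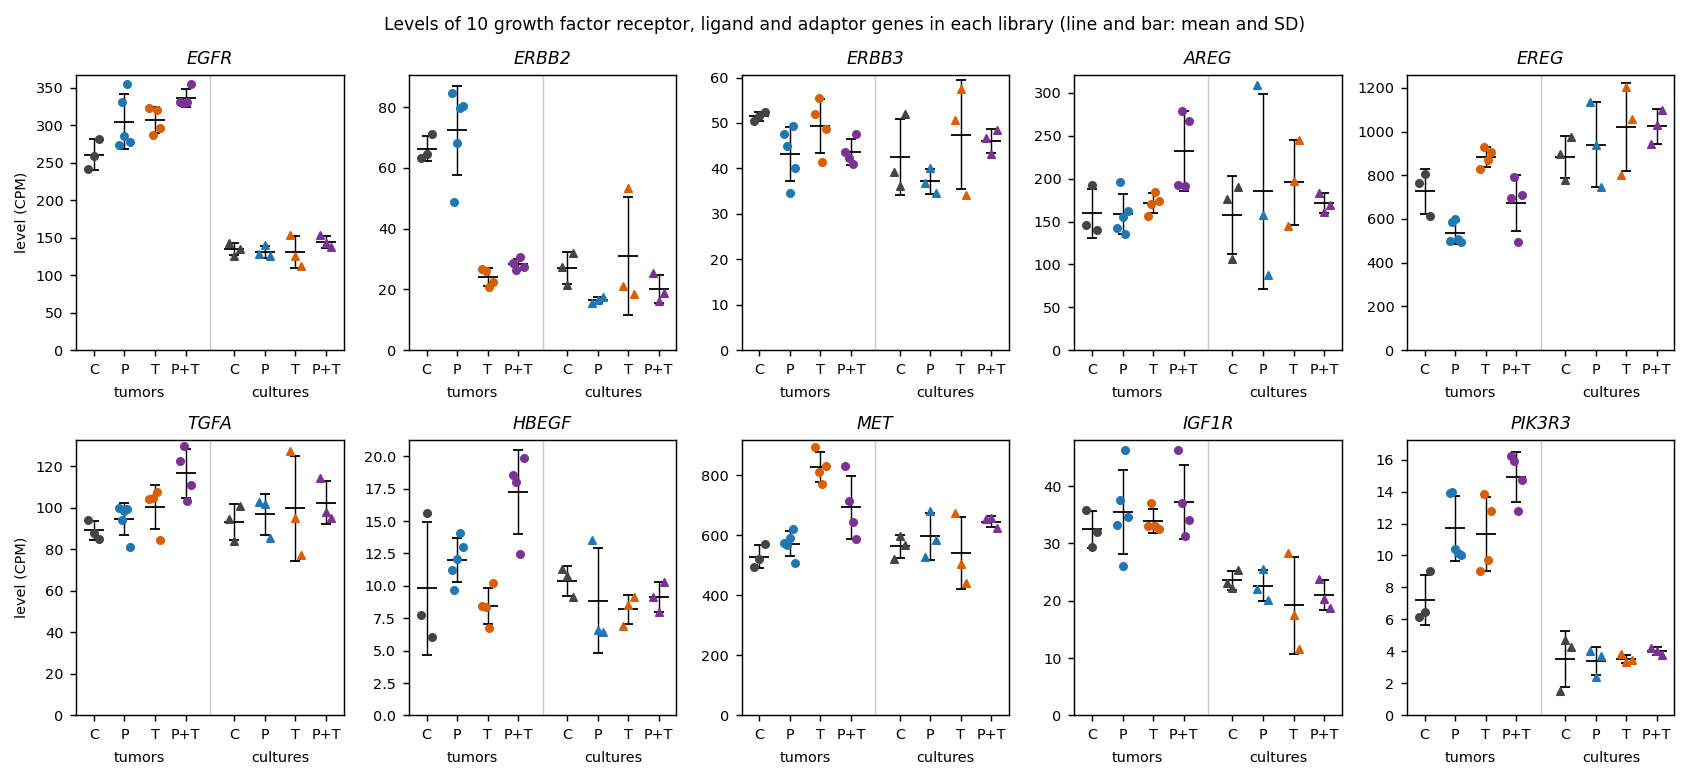
Level (CPM) of each gene in every library of Control (C), Palbociclib (P), Telaglenastat (T) and Combination (P+T) tumors (circles) and cultures (triangles), with the mean and SD of each group. ERBB2 was at 20.7 to 30.6 CPM in the Telaglenastat and Combination tumors and at 48.6 to 84.7 in the others, whereas HBEGF and PIK3R3 had their highest means in Combination tumors.

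ERBB2 had the largest change of the 10 genes, and it fell in both groups of tumors that received Telaglenastat. Its level in Control tumors was 63.3, 64.6 and 71.1 CPM, and in Palbociclib tumors 84.7, 48.6, 68.2, 79.9 and 80.4. In Telaglenastat tumors it was 26.8, 26.0, 20.7 and 22.4 CPM, and in Combination tumors 28.6, 26.4, 30.6 and 27.5. The 8 tumors that received Telaglenastat were thus all below the 8 that did not. ERBB2 fell by 1.57 (SE 0.15) on the log2 scale with Telaglenastat (adjusted p = 6.39e-08, edgeR), a level 2.98-fold lower. It fell by 1.33 (SE 0.15) with the Combination against Control (adjusted p = 5.85e-07) and by 1.46 (SE 0.13) against Palbociclib (adjusted p = 7.14e-08). Palbociclib alone gave 0.13 (95% interval -0.14 to 0.41, adjusted p = 0.691), and the Combination against Telaglenastat 0.24 (-0.07 to 0.55, adjusted p = 0.281).

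Genes of like composition were lower too. The longest ERBB2 transcript had 57.53% GC, the highest of the 10 genes, and the 890 tested genes within 1 percentage point of it had a median change of -0.90 with Telaglenastat and -0.73 with the Combination. After correction the change of ERBB2 was -0.70 (adjusted p = 4.24e-05), -0.54 (adjusted p = 0.000306) and, against Palbociclib, -0.63 (adjusted p = 3.43e-05). These 3 calls were kept in every alternative, including each left-out library. Palbociclib tumor 2, with the lowest ERBB2 level of its group, also had the lowest GC slope there. ERBB2, at chr17:39687914-39730426, overlaps MIEN1 and PGAP3 on the opposite strand, and library preparation kept the strand, while the strand setting of the counting is not given in the sources used here. MIEN1 was at 17.5 to 24.8 CPM in Control and 8.71 to 18.8 in Telaglenastat tumors, and PGAP3 at 5.42 to 7.33 and 1.66 to 2.66.

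**Figure D3:**
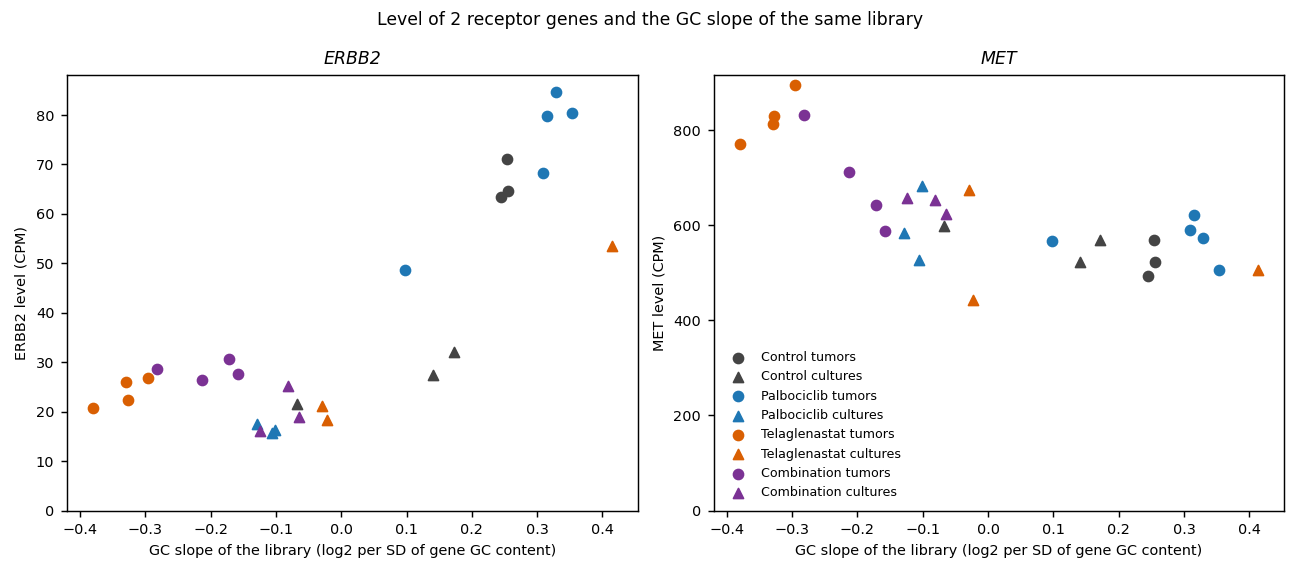
Level (CPM) of ERBB2 and MET against the GC slope of the same library (log2 per SD of gene GC content), for tumors (circles) and cultures (triangles) of the 4 treatments. Slopes are relative to the mean over tumors or over cultures, so tumors and cultures have different zero points. Tumors with a negative slope, below the mean of the tumors, were those that received Telaglenastat. Among cultures, Telaglenastat culture 2 combined the highest slope, 0.414, with the highest ERBB2 level, 53.4 CPM.

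MET rose with Telaglenastat. Its level was 494, 523 and 569.6 CPM in Control tumors and 895, 813, 772 and 831 in Telaglenastat tumors, so every Telaglenastat tumor was above every Control tumor. The change was 0.54 (SE 0.10, adjusted p = 0.000103), or 1.45-fold. Combination tumors had 832, 713, 643 and 589 CPM and Palbociclib tumors 573, 568, 591, 622 and 507, and these groups overlapped. MET rose by 0.29 (SE 0.09, adjusted p = 0.0179) with the Combination against Control and fell by 0.25 (SE 0.09, adjusted p = 0.0498) between Telaglenastat and the Combination. Its longest transcript had 42.38% GC, and the 1388 genes of like GC content had a median change of 0.31 with Telaglenastat. After correction MET had 0.27 (adjusted p = 0.0434) with Telaglenastat, 0.13 (adjusted p = 0.299) with the Combination and -0.14 (adjusted p = 0.285) between them. The Combination call against Control was also lost without Control tumor 1 or 2 or Combination tumor 1 (0.21 to 0.27, adjusted p from 0.0613 to 0.0867). That against Telaglenastat was lost without any one of Telaglenastat tumors 1, 2 and 4 or Combination tumors 2, 3 and 4 (-0.26 to -0.18, adjusted p from 0.0767 to 0.176).

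EGFR itself changed little with treatment. It had 241, 259.8 and 282 CPM in Control tumors and 274, 331, 286, 356 and 278 in Palbociclib tumors. Telaglenastat tumors had 324, 288, 321 and 297 CPM, and Combination tumors 331, 329, 331 and 355, all above the Control tumors. For Telaglenastat the gap to the Control tumors was smaller than the log2 shift of 0.11 between the scalings. EGFR rose 1.2-fold with the Combination, by 0.27 (SE 0.09, adjusted p = 0.0225) on the log2 scale and by 0.24 (adjusted p = 0.0274) after correction. Without Control tumor 1 or 2 or Combination tumor 4 this call was lost (0.21 to 0.26, adjusted p from 0.0575 to 0.115). Palbociclib gave 0.23 (95% interval 0.05 to 0.41, adjusted p = 0.142) and Telaglenastat 0.13 (-0.06 to 0.32, adjusted p = 0.259), or 0.21 and 0.03 after correction. In one fit of all 28 libraries the Telaglenastat value was 0.23 (adjusted p = 0.0496). EGFR, at chr7:55019021-55211628, overlaps EGFR-AS1 on the other strand, which had 0 to 3 counts per library.

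ERBB3 and IGF1R showed small differences. ERBB3 had 50.5 to 52.4 CPM in Control, 34.6 to 49.3 in Palbociclib (-0.24, adjusted p = 0.233), 41.5 to 55.4 in Telaglenastat and 41.0 to 47.5 in Combination tumors. It fell by 0.34 (SE 0.12, adjusted p = 0.0228) with the Combination, but had -0.09 (adjusted p = 0.562) after correction and lost the call without any one of Control tumors 2 and 3 or Combination tumors 1 to 3 (-0.34 to -0.31, adjusted p from 0.0509 to 0.0646). DESeq2 gave ERBB3 -0.28 there (adjusted p = 0.0566). GENCODE 29 places AC034102.2 over ERBB3 on the same strand. IGF1R had 29.4 to 35.9 CPM in Control, 26.0 to 46.3 in Palbociclib, 32.6 to 37.0 in Telaglenastat and 31.3 to 46.3 in Combination tumors, and all 4 groups overlapped. Its changes against Control were 0.13 (95% interval -0.17 to 0.43), -0.04 (-0.36 to 0.28) and 0.09 (-0.23 to 0.41) with Palbociclib, Telaglenastat and the Combination. After correction they were 0.10, 0.16 and 0.32, with adjusted p of 0.764, 0.527 and 0.115.

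Among the ligands, EREG was lower with Palbociclib. It had 763, 805 and 612 CPM in Control tumors and 499, 587, 601, 508 and 493 in Palbociclib tumors, with no overlap. EREG fell by 0.43 (SE 0.11, adjusted p = 0.027) on the log2 scale, or 1.35-fold, and by 0.36 (adjusted p = 0.0339) after correction. The call was lost without Control tumor 1 or 2 or Palbociclib tumor 1, 4 or 5 (-0.41 to -0.36, adjusted p from 0.0571 to 0.167). Telaglenastat tumors had 828, 929, 869 and 908 CPM, and Combination tumors 696, 792, 493 and 710, all of the latter below the former. EREG fell by 0.39 (SE 0.11, adjusted p = 0.0196) in the Combination against Telaglenastat. That value was -0.23 (adjusted p = 0.128) after correction, -0.36 (adjusted p = 0.0532) without Telaglenastat tumor 2 and -0.26 (adjusted p = 0.0801) without Combination tumor 3. Against Control the Combination gave -0.21 (adjusted p = 0.161), and -0.45 (adjusted p = 0.00387) after correction. EREG had 36.11% GC, the lowest of the 10 genes.

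AREG, its neighbour, was higher in the Combination than in each other tumor group. Levels were 146, 192 and 139.9 CPM in Control tumors, 142, 196, 156, 136 and 163 in Palbociclib, 156, 170.3, 185 and 174 in Telaglenastat and 193, 279, 191 and 267 in Combination tumors. The Combination tumors were all above the Telaglenastat tumors, while Control tumor 2 and Palbociclib tumor 2 exceeded the lowest of them. AREG rose by 0.45 in each of the 3 comparisons, with SE 0.14 (adjusted p = 0.0148) against Control, SE 0.12 (adjusted p = 0.00523) against Palbociclib and SE 0.13 (adjusted p = 0.0203) against Telaglenastat. After correction it had 0.25 (adjusted p = 0.153), 0.26 (adjusted p = 0.115) and 0.39 (adjusted p = 0.0238). The call against Control was lost without Control tumor 1 or 3 or Combination tumor 2 or 4 (0.35 to 0.39, adjusted p from 0.0518 to 0.0852). That against Telaglenastat was lost without Telaglenastat tumor 1 or Combination tumor 2 or 4 (0.36 to 0.42, adjusted p from 0.0583 to 0.0779).

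HBEGF gave the largest change of the 10 genes between Telaglenastat and the Combination. Its level was 8.45, 8.37, 6.74 and 10.2 CPM in Telaglenastat tumors and 18.6, 18.01, 12.5 and 19.9 in Combination tumors, with no overlap. HBEGF rose 2.04-fold between them, by 1.03 (SE 0.24, adjusted p = 0.00448) on the log2 scale and by 0.96 (adjusted p = 0.00722) after correction. This call was kept in every alternative. Control tumors had 7.75, 15.6 and 6.02 CPM and Palbociclib tumors 11.2, 9.68, 12.1, 14.1 and 12.98. Control tumor 2 lay within the Combination range. Against Control the Combination gave 0.70 (SE 0.25, adjusted p = 0.0268), and 0.78 (adjusted p = 0.0214) after correction. Without Control tumor 2 the value was 1.21 (adjusted p = 0.00039). Without Control tumor 1 or 3 or Combination tumor 2 or 4 it was 0.46 to 0.68 and no longer called (adjusted p from 0.0524 to 0.164). HBEGF had only 43 to 150 counts in a tumor library.

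TGFA passed the test against Control in the Combination alone, with a small rise. It had 85.0 to 94.2 CPM in Control, 81.4 to 99.9 in Palbociclib, 84.4 to 108 in Telaglenastat and 103 to 130 in Combination tumors. TGFA rose by 0.29 (SE 0.09, adjusted p = 0.0172) with the Combination against Control, 1.22-fold, and had 0.17 (adjusted p = 0.18) after correction. The call was lost without Control tumor 2 or 3 or Combination tumor 2 (0.23 to 0.27, adjusted p from 0.0593 to 0.0741). Against Palbociclib the Combination gave 0.19 (adjusted p = 0.0564) and against Telaglenastat 0.22 (adjusted p = 0.0807), and without Combination tumor 3 both passed, with 0.24 (adjusted p = 0.0271) and 0.28 (adjusted p = 0.046).

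PIK3R3, a regulatory subunit that brings the PI3K catalytic subunit to phosphorylated receptors and adaptors, rose with each treatment from a low level. Control tumors had 6.18, 6.46 and 9.03 CPM, the lowest of the tumor groups. Palbociclib tumors had 13.9, 13.97, 10.4, 10.2 and 10.1 CPM, Telaglenastat tumors 9.05, 13.8, 9.71 and 12.8, and Combination tumors 16.3, 15.9, 12.8 and 14.7. All treated tumors lay above the highest Control tumor, the lowest Telaglenastat tumor only just, with 9.05 against 9.03 CPM. That gap was smaller than the log2 shift of 0.11 between scalings over 28 libraries and over tumors, so it depends on the scaling. PIK3R3 rose by 0.71 (SE 0.19, adjusted p = 0.0281) with Palbociclib, by 0.55 (SE 0.20, adjusted p = 0.0267) with Telaglenastat and by 0.95 (SE 0.20, adjusted p = 0.000609) with the Combination, 1.93-fold. After correction the values were 0.71 (adjusted p = 0.0169), 0.41 (adjusted p = 0.173) and 0.86 (adjusted p = 0.00195). The Combination call was kept in every alternative. That of Palbociclib was lost without Control tumor 1 or 2 or Palbociclib tumor 1 (0.61 to 0.64, adjusted p from 0.0632 to 0.158). That of Telaglenastat was lost without Control tumor 1 or 2 or Telaglenastat tumor 2 or 4 (0.43 to 0.49, adjusted p from 0.0688 to 0.114). Counts of PIK3R3 were 59 to 155 per tumor library, and GENCODE 29 places AL358075.4 over it on the same strand.

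**Figure D4:**
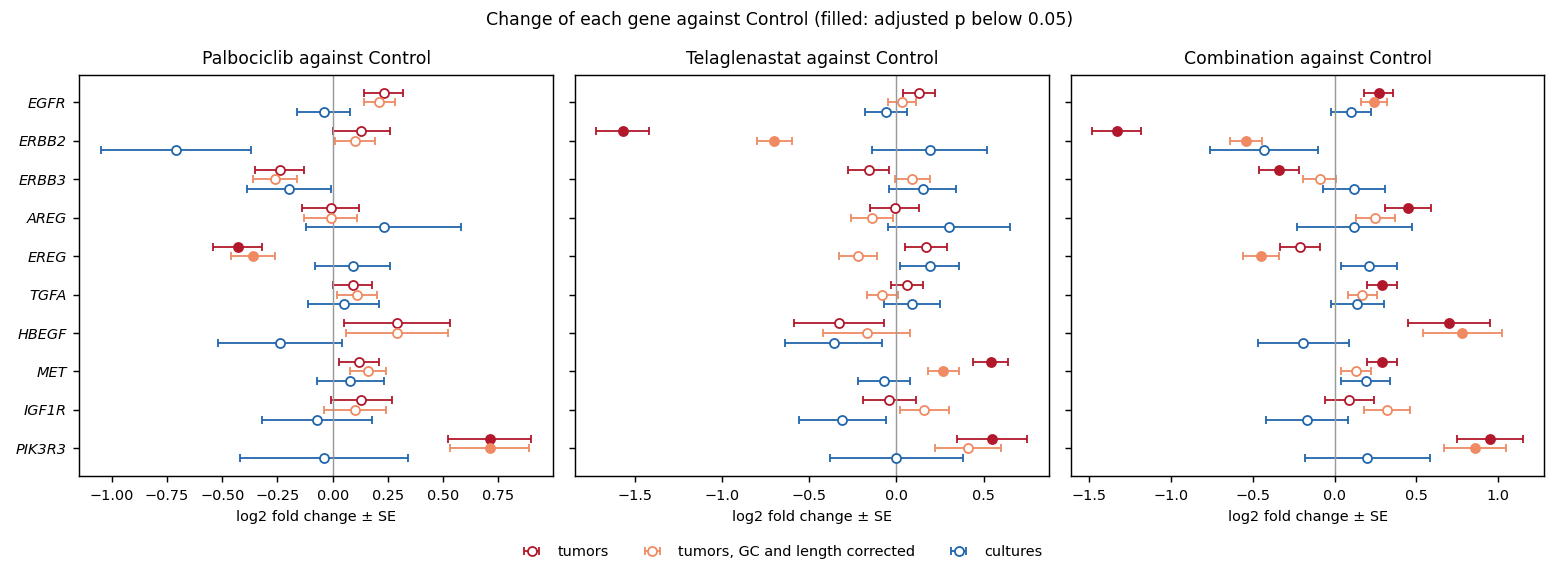
Log2 fold change against Control with its SE (x axis) of each gene (y axis) with Palbociclib, Telaglenastat and the Combination, in tumors, in tumors after correction for GC content and length, and in cultures. Filled points have an adjusted p below 0.05. ERBB2 moved from -1.57 to -0.70 with Telaglenastat on correction, while PIK3R3 with the Combination moved from 0.95 to 0.86, and no culture point is filled.

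Against Palbociclib tumors the Combination passed the threshold for 2 genes, ERBB2 and AREG, where 47.6% of all genes did. Against Telaglenastat tumors it passed for 4 genes, where 18.8% of all genes did: AREG and HBEGF rose, EREG and MET fell. After correction 1 gene, ERBB2, passed against Palbociclib and 3, AREG, TGFA and HBEGF, against Telaglenastat, where 15.3% and 15.9% of all genes did. The groups did not overlap in CPM for 2 genes against Palbociclib and 4 against Telaglenastat, where 38.4% and 20.5% of all genes did not. For TGFA the gap to Palbociclib was smaller than the log2 shift of 0.11 between the scalings. The number of members called was 5 in each of these comparisons with DESeq2, which called 7506 and 2956 of 14848 genes. DESeq2 added EREG, TGFA and MET against Palbociclib (0.22 to 0.26, adjusted p from 0.0129 to 0.0255) and TGFA against Telaglenastat (0.24, adjusted p = 0.0433). No member passed the test of departure from the sum of both single-drug changes, where 0.0673% of all genes did. DESeq2 gave 0 members, where it called 87 genes. At an unadjusted p below 0.05 by edgeR, which 1424 of 14848 genes had, there were 3 members. They were AREG with 0.46 (SE 0.19, adjusted p = 0.436), HBEGF with 0.74 (SE 0.34, adjusted p = 0.505) and MET with -0.37 (SE 0.13, adjusted p = 0.355). Their 95% intervals, 0.06 to 0.85, 0.04 to 1.43 and -0.63 to -0.11, were wide. After correction the values were 0.41, 0.67 and -0.30. Summed proliferation markers, which include MKI67 and TOP2A, were 1226 to 1365 CPM in Control and 1444 to 1609 in Telaglenastat tumors, and 620 to 830 CPM in Palbociclib and 628 to 1019 in Combination tumors, and their part in these differences was not tested.

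In cultures grown without drug none of the 10 genes passed the test between treatments of origin. In the comparisons with Control the count was 0 of 10 for Palbociclib and Telaglenastat, where 0% of 13985 genes passed, and 0 for the Combination, where 0.00715% did. It was also 0 for the Combination against Palbociclib and against Telaglenastat and for the departure from the sum, where 0% of genes passed each. In all 6 comparisons the count was 0 by edgeR at an unadjusted p below 0.05 and 0 by DESeq2. Of the 13985 genes, 277 to 1969 had such an unadjusted p and DESeq2 called 0 to 125. ERBB2 had 27.5, 21.5 and 32.1 CPM in Control cultures, 15.6, 16.4 and 17.6 in Palbociclib, 21.1, 53.4 and 18.4 in Telaglenastat and 25.3, 16.2 and 18.9 in Combination cultures. For Palbociclib against Control cultures the ERBB2 value was -0.71 (95% interval -1.43 to 0.02, adjusted p = 0.795), and -0.34 after correction. The interval for ERBB2 with Telaglenastat was -0.52 to 0.90 and with the Combination -1.15 to 0.29, which leaves room for differences of these sizes. Those for EGFR were narrower, -0.30 to 0.22 with Palbociclib, -0.32 to 0.20 with Telaglenastat and -0.16 to 0.36 with the Combination. AREG spread widely among Palbociclib cultures, from 87.9 to 309.6 CPM. MET differed between Combination and Telaglenastat cultures by 0.27 (adjusted p = 0.41), and by 0.46 (adjusted p = 0.0451) without Telaglenastat culture 1.

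Tumors and cultures without drug differed in 3 of the 10 genes, all higher in tumors, where 45.9% of 15466 genes tested passed in either direction and 23.1% were higher. After correction these 3 passed again, where 40.4% of all genes did, and the groups did not overlap in CPM for 4 members, the fourth being IGF1R, where 59.2% of all genes did not. EGFR had 241 to 282 CPM in Control tumors and 126 to 143 in Control cultures, a rise of 0.95 (SE 0.11, adjusted p = 5.53e-08), or 1.94-fold, and of 0.91 (adjusted p = 1.51e-09) after correction. Over all treatments the 16 tumors spanned 241 to 356 CPM and the 12 cultures 112 to 154. ERBB2 was 1.30 (SE 0.26, adjusted p = 0.000166) higher and 0.65 (adjusted p = 0.000393) after correction, while the 915 genes of like GC content had a median of 0.57. PIK3R3 was 1.04 (SE 0.28, adjusted p = 0.00367) higher, with 6.18 to 9.03 CPM in Control tumors and 1.53 to 4.74 in Control cultures, and 1.11 (adjusted p = 0.00147) after correction. All 3 calls were kept in every alternative. The ligands did not pass the test: AREG had 0.02, EREG -0.28, TGFA -0.06 and HBEGF -0.08, with adjusted p from 0.145 to 0.964. MET had -0.09 (adjusted p = 0.584). IGF1R had 0.46 (adjusted p = 0.0753), and 0.49 (adjusted p = 0.0432) with DESeq2. ERBB3 had 0.28 (adjusted p = 0.144), and 0.45 (adjusted p = 0.0311) without Control culture 3. Summed stromal markers were 162 to 202 CPM in Control tumors and 4.86 to 8.27 in Control cultures, and summed proliferation markers 1226 to 1365 and 2257 to 2602, and their part in these differences was not tested.

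The effect of Telaglenastat differed between tumors and cultures for 2 genes, where 34.1% of all genes passed. For ERBB2 the difference was -1.68 (SE 0.35, adjusted p = 0.000932), -1.02 (adjusted p = 0.00629) without Telaglenastat culture 2, and -0.80 (adjusted p = 0.0139) after correction, where 4.8% of all genes passed. For MET it was 0.71 (SE 0.17, adjusted p = 0.00316) and 0.31 (adjusted p = 0.242) after correction. Without Telaglenastat culture 1 the differences for EGFR, 0.41 (adjusted p = 0.0205), and IGF1R, 0.74 (adjusted p = 0.026), also passed, as did that for PIK3R3, 1.01 (adjusted p = 0.023), without Control culture 1. For Palbociclib and the Combination the differences passed for 0 genes, where 1.39% and 2.91% of all genes passed. DESeq2 also gave 0 members, where it called 423 and 607 genes. By edgeR, 2 and 3 members had an unadjusted p below 0.05, where 2159 and 3211 of 15466 genes had one. The largest of these was HBEGF with the Combination, 1.00 (SE 0.39, adjusted p = 0.14), and it was 1.51 (adjusted p = 0.0362) without Control tumor 2.

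**Figure D5:**
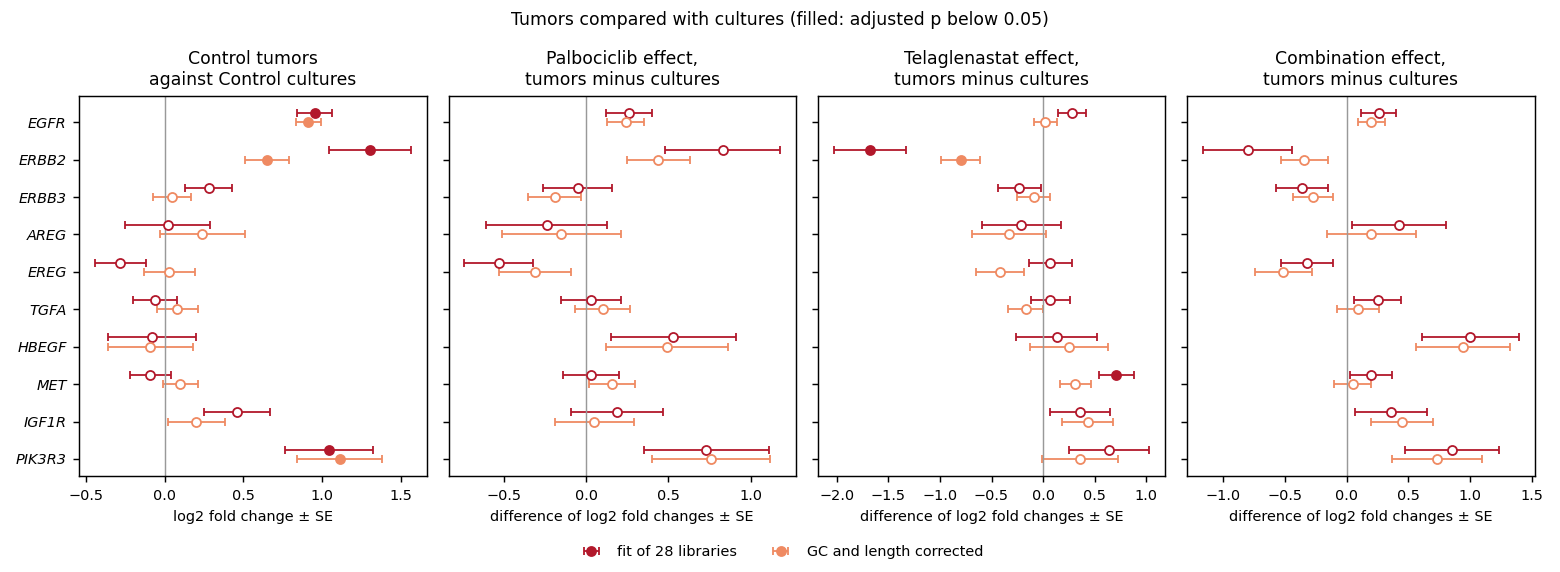
Log2 fold change of Control tumors against Control cultures, and the difference between tumors and cultures in the log2 effect of each treatment (x axes, with SE), for each gene (y axis), before and after correction for GC content and length. Filled points have an adjusted p below 0.05, as EGFR, ERBB2 and PIK3R3 have in the first panel and ERBB2 and MET in the panel of the Telaglenastat effect.

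Of 121 further genes of the pathway, listed by function, 99 were tested in tumors. With Palbociclib 3 rose and 1 fell (4.04%), with Telaglenastat 27 rose and 38 fell (65.7%) and with the Combination 15 rose and 33 fell (48.5%), where 6.16%, 51.1% and 44.5% of all genes passed. After correction the numbers were 4 and 1 (5.05%), 5 and 15 (20.2%), and 13 and 16 (29.3%), where 7.79%, 14.9% and 26.4% of all genes passed. Among 30 other receptor tyrosine kinases, 19 were tested, and 12 fell and 1 rose with Telaglenastat. After correction 7 fell and 2 rose, and the median of the 19 moved from -0.61 to -0.18. Those with the largest changes were FGFR4, a fibroblast growth factor receptor, with -2.61 (corrected -1.21, adjusted p = 0.00781), MST1R, the closest relative of MET, with -1.67 (corrected -0.53, adjusted p = 0.023) and EPHA2, an ephrin receptor, with -1.58 (corrected -0.44, adjusted p = 0.0223). ADAM15 of the ligand-shedding list fell by 2.46 with Telaglenastat and by 1.98 with the Combination, and had -1.03 and -0.77 after correction (adjusted p = 4.67e-06 and 4.08e-05). GRB7, an adaptor that binds ERBB2 and lies beside it on chromosome 17, fell by 1.69 and 2.04, and by 0.58 (adjusted p = 0.0491) and 1.13 (adjusted p = 0.000303) after correction. CBLC, a ubiquitin ligase of activated receptors, fell by 2.33 and 2.60, with -0.85 (adjusted p = 0.0747) and -1.47 (adjusted p = 0.00178) after correction. AKT1, a kinase downstream of PI3K, fell by 1.66 and 1.29, with -0.38 (adjusted p = 0.00347) and -0.18 (adjusted p = 0.129) after correction, and HRAS fell by 2.46 and 2.16, with -0.89 (adjusted p = 0.00616) and -0.96 (adjusted p = 0.0017).

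With Palbociclib the genes that rose were IGFBP6 and IGFBP3, which bind insulin-like growth factors, with 1.40 (SE 0.20, adjusted p = 0.000114) and 0.78 (SE 0.17, adjusted p = 0.0066), and the hormone-like FGF19 with 1.00 (SE 0.21, adjusted p = 0.00437). PDGFC fell by 0.40 (adjusted p = 0.0443), but had -0.34 (adjusted p = 0.0625) after correction and was no longer called. IGFBP3 also rose by 1.10 with the Combination (corrected 1.12, adjusted p = 8.84e-05). IGFBP6 fell by 2.22 with Telaglenastat (corrected -0.75, adjusted p = 0.0229). IRS2, the docking protein of insulin and IGF receptors, rose by 0.59 with the Combination (corrected 1.48, adjusted p = 2.48e-05). Of the 7 other EGF family ligands 4 were tested and none passed the threshold in a tumor comparison with Control. BTC, which lies near AREG and was chosen after its values were seen, was higher in Control tumors than in Control cultures by 2.07 (SE 0.28, adjusted p = 8.99e-07), with 14.3 to 17.6 and 2.71 to 4.35 CPM. In Combination against Control tumors BTC had 0.48 (SE 0.19, adjusted p = 0.0507), just short of the threshold, and 0.22 (adjusted p = 0.425) after correction. In cultures 0 of 96 listed genes tested passed in any of the 6 comparisons.

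The genes with the pattern most like that of single members, over log2 levels of 28 libraries centred within tumors and within cultures, are a description only, since the libraries differ in their GC slope. For ERBB2 they were PRKCSH and PLXNB2 (r = 0.98 each), with 61.02% and 63.11% GC. For MET they were ARHGEF12 (r = 0.95) and MIB1 (r = 0.93), with 41.72% and 37.67% GC. Likeness was lower for EGFR, with GOLGB1 and MYOF (r = 0.81 each), for AREG, with PKIB (r = 0.76), and for HBEGF, with CDK6 (r = 0.78). Among the members the highest value was r = 0.67 between EGFR and TGFA and the lowest r = -0.68 between ERBB2 and MET. AREG and EREG, next to each other in the genome, had r = 0.49.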

How the data were processed

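Whole-gene read counts of 16 tumors and 12 cultures were analysed. According to the study's methods, poly(A) RNA was made into strand-specific libraries, sequenced as single-end reads and aligned and counted by the authors with STAR. The processing notes name CASAVA 1.8 and hg38. The annotation release and strand setting are not given in the sources used here. The deposited values are raw counts per gene, not normalized.

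Groups came from the labels. The members and gene lists were chosen with earlier results of these data known. Members and the 2 neighbouring ligands BTC and EPGN were matched by symbol. Of the other listed genes, at most the 3 called genes of each list with the largest absolute change were named. Counts were tested with edgeR 4.0.16 (R 4.3.3, TMM, filterByExpr with a minimum count of 10, quasi-likelihood test, Benjamini-Hochberg adjustment over all genes tested, threshold 0.05), tumors and cultures separately, and all 28 libraries together for comparisons between them. Levels are CPM on one TMM scaling, and RPKM uses GENCODE 29 exon length. GC content is that of the longest transcript. Intervals use the t distribution with the degrees of freedom of the test. The correction removed, per library, a natural spline (5 degrees of freedom) fitted robustly to GC content and to log length, and was tested on simulated data. Alternatives were DESeq2 1.42.0, its size factors, 2 filters, other sample sets, the replicate number as a block and each library left out. No 2 libraries of a group agreed within sampling noise. Promoters are RefSeq's, and 9 of 10 members matched one. One result on likeness between genes is not reported here.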

Additional observations from a re-analysis of the deposited data

Results flagged for a closer look

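Single tumors stood apart from their group in 3 of 30 combinations of a gene and a treated tumor group, where chance gives about 1 in 20 groups. EGFR was 355 CPM in Combination tumor 4, beside 329 to 331 CPM in the other 3. TGFA was 84.4 CPM in Telaglenastat tumor 4, beside 104 to 108. IGF1R was 37.0 CPM in Telaglenastat tumor 2, beside 32.6 to 33.0.

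The response to Telaglenastat differed between tumors and cultures for 2 receptors by the test of the difference itself. For ERBB2 the difference of log2 changes was -1.68 (SE 0.35, edgeR adjusted p = 0.000932), beside -1.57 in tumors and 0.19 in cultures fitted separately. Telaglenastat culture 2 had 53.4 CPM of ERBB2, beside 21.1 and 18.4 in cultures 1 and 3. With each library left out, the value in cultures ran from -0.46 to 0.45. Without Telaglenastat culture 2 the difference was -1.02 (edgeR adjusted p = 0.00629). For MET it was 0.71 (SE 0.17, adjusted p = 0.00316), beside 0.54 in tumors and -0.07 in cultures. The GC slope differed the same way, with -0.38 to -0.295 in Telaglenastat tumors and 0.245 to 0.255 in Control tumors, against -0.0294 to 0.414 and -0.068 to 0.172 in the matching cultures. After correction ERBB2 kept its call with -0.80 (adjusted p = 0.0139) and MET did not, with 0.31 (adjusted p = 0.242).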

How the results depend on the processing

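Of 24 calls, 9 were kept under every alternative and 15 were lost under at least one, and none changed direction. Numbers of members called moved by over 1.5 times as follows. With the GC and length correction they were 5 for the Combination against Control (8 without it), 1 against Palbociclib (2) and 1 for the Telaglenastat effect in tumors minus cultures (2). In one fit of all 28 libraries the number was 0 for Palbociclib against Control, 5 for the Combination against Palbociclib and 1 against Telaglenastat. With only the compared groups it was 1 for Palbociclib against Control and 4 for the Combination against Palbociclib. DESeq2, its size factors in edgeR and no filter each gave 5 for the latter. No filter also gave 1 for the departure from the sum in tumors (AREG, adjusted p = 0.0364), 2 for the Palbociclib effect (ERBB2 and EREG) and 1 for the Combination effect (ERBB2) in tumors minus cultures. At least 10 counts in every library gave 5 for Control tumors against cultures, adding ERBB3 and IGF1R. The cause of these shifts was not tested.

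Replicate numbers did not pair the samples (r -0.115 to 0.081 over 21 tumor pairs and -0.365 to 0.133 over 18 culture pairs). With the replicate block, 0 members passed for Palbociclib against Control. With the block and the GC and length correction the numbers were 1 for Palbociclib and 1 for Telaglenastat against Control, 4 for the Combination against Control, 1 against Palbociclib, 2 against Telaglenastat and 1 for the Telaglenastat effect.

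With each library left out in turn, the number was 0 to 2 for Palbociclib, 2 to 3 for Telaglenastat and 4 to 7 for the Combination against Control tumors. It was 2 to 4 for the Combination against Palbociclib, 2 to 4 against Telaglenastat, and 0 to 1 against Telaglenastat in cultures. It was 3 to 4 for Control tumors against cultures, 2 to 4 for the Telaglenastat effect and 0 to 1 for the Combination effect in tumors minus cultures. HBEGF and PIK3R3 had the lowest counts, with 43 to 150 and 12 to 155 per library.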
